A study of Arabidopsis thaliana with 7 samples.

Results

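The genes examined here were the 38 core histone genes of Arabidopsis thaliana on a list of locus identifiers, namely 12 genes for H2A, 10 for H2B, 8 for H3 and 8 for H4, out of 27444 nuclear protein-coding genes. For each gene, the peaks of E2FA, E2FB, E2FC and RBR that touched the 1000 bp on either side of its transcriptional start site (TSS) were collected. Chromatin came from whole seedlings of Col0 that carried 1 of the transgenes pE2FA-E2FA-GFP, pE2FB-E2FB-GFP, pE2FC-E2FC-GFP or pRBR-RBR-GFP, each driven by the promoter of the gene itself, and was precipitated with the anti-GFP antibody ab290. The labels give an untreated culture of 12 days on agar, whereas the methods of the study give another age. E2FA, E2FB and RBR were each precipitated in 2 libraries, replicate 1 and replicate 2, and E2FC in replicate 1 only. None of the 7 libraries came from input DNA or from plants without GFP, so a peak at a histone gene could not be set against a background measured in such plants. Whole seedlings mix dividing with differentiated cells, and a peak in many cells cannot be told apart from a strong peak in few.

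Core histones form the octamer around which DNA is wrapped, and most of them are made in S phase, when the new DNA has to be packed. E2F proteins bind DNA as heterodimers with DP proteins and control genes of S phase, and RBR, the plant retinoblastoma protein, binds E2Fs and holds their targets back. H3.1, H4, H2B and canonical H2A supply replicating chromatin, and the chaperone CAF-1 places H3.1 behind the replication fork. The replacement variants H3.3 and H2A.Z are placed in chromatin outside replication, H3.3 over transcribed genes by chaperones such as HIRA and H2A.Z near the start of genes by the SWR1 complex. Plants also have H2A.X, which is phosphorylated at DNA breaks, and H2A.W, which lies in heterochromatin. Promoters of plant histone genes are known for short shared words, of which the octamer CGCGGATC and the hexamer ACGTCA are the best studied, and E2F sites have the core words TTTCCCGC, TTTCGCGC, TTTGCCGC and TTTGGCGC.

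Peak strength was read from the fold enrichment, the ratio of the pile-up in the peak to the surrounding pile-up of that library, as the authors' peak caller wrote it. Replicate 1 holds broad peaks, where the ratio is a mean over the peak, and replicate 2 holds narrow peaks, where it is the ratio at the summit, so fold enrichments were not compared between them. Replicate, peak format and any batch cannot be told apart. To set genes side by side, each gene was given a rank in each library, the percentage of the 27444 genes whose strongest peak within the window was lower, where a gene without a peak has rank 0. Values of a gene are given in the order E2FA, E2FB, E2FC and RBR for replicate 1 and E2FA, E2FB and RBR for replicate 2. Distances run along transcription from the TSS, with negative values upstream, to the midpoint of a broad peak or the summit of a narrow peak. Since only 1 or 2 libraries exist for each protein and genes are not replicates of each other, no comparison was tested. The spread between replicates is given instead as the pooled SD of the 3 pairs of libraries of the same protein.

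Nearly all core histone genes had a peak of E2FA, E2FB and RBR, and fewer had a peak of E2FC. In replicate 1, E2FA had a peak in the window of 37 members, E2FB of 37, E2FC of 25 and RBR of 38, while 75.7, 71.9, 57.0 and 74.8% of all protein-coding genes had one. In replicate 2, E2FA had one at 37 members, E2FB at 37 and RBR at 38, beside 67.1, 73.2 and 77.4% of all genes. A window of this size met a peak at most genes of the genome, so the strength of the peak says more than its presence. Peaks were found in all 7 libraries at 23 members (60.5%), against 40.8% of all genes.

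By strength, the median histone gene lay in the upper part of the genome, but the single members were spread widely. Their mean ranks over the 7 libraries ran from 31.4 to 99.3, where the median of all protein-coding genes was 46.8. In replicate 1 the 38 members had a median rank of 63.0 in the E2FA library, 79.1 in the E2FB library, 87.4 in the E2FC library and 69.8 in the RBR library. In replicate 2 the median rank was 87.4 with E2FA, 92.7 with E2FB and 83.2 with RBR, where the median gene of the genome had a rank under 50 in each of the 7 libraries. The spread between replicates of the members' median rank was 12.7 points. The distance from the median gene was larger than this spread in all 7 libraries, but for E2FA replicate 1 by less than 1 point. There the median rank of the members was 61.5 with the peak nearest to the TSS, 61.4 with peaks nearest to the own TSS only, 56.9 in a window of 2000 bp and 51.5 among genes with a peak only, all within the spread of the median gene. Among genes with a peak only, RBR replicate 1, at 59.6, was within it too.

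Counted at the top of each library, E2FA had 13 members in the top 10% of all genes (rank of at least 90) in replicate 1, E2FB 15, E2FC 18 and RBR 2. Of all genes, 9.99% were there with E2FA and, by construction of the rank, 10% with each of the others. In replicate 2, E2FA had 18 members there, E2FB 21 and RBR 11, beside 9.93, 9.88 and 9.99% of all genes. RBR replicate 1 was thus the library with the fewest histone genes at the top, with only HTA11 and HTA3 past 90 and HTB6 just under it at 89.96. RBR replicate 2, from plants of the same genotype, had 11 members past it.

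A fixed cutoff was also applied to each library, a fold enrichment over 3 with a q-value under 0.01. Both limits were taken from the target definition of the study, but its target list was not compared here. The fold enrichment is a mean over the peak in replicate 1 and a summit value in replicate 2. The counts were therefore not compared between replicates, and they are not read as target calls of the study. In replicate 1, 8 members passed for E2FA, 1 for E2FB and none for E2FC or RBR, where 1.73, 0.288, 0.266 and 0.0182% of all genes passed. The 8 members for E2FA were HTA11, HTB4, HTB6, HTB9, HTR2, HTR9, HTR13 and AT5G59690, and the 1 for E2FB was HTA11. In replicate 2, 27 members passed for E2FA, 34 for E2FB and 36 for RBR, beside 32.8, 49.2 and 52.6% of all genes. At a fold enrichment over 2 in place of 3, E2FA had 16 members past the threshold in replicate 1, E2FB 16, E2FC 19 and RBR 14, beside 31.3, 12.9, 10.5 and 21.4% of all genes.

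**Figure D1:**
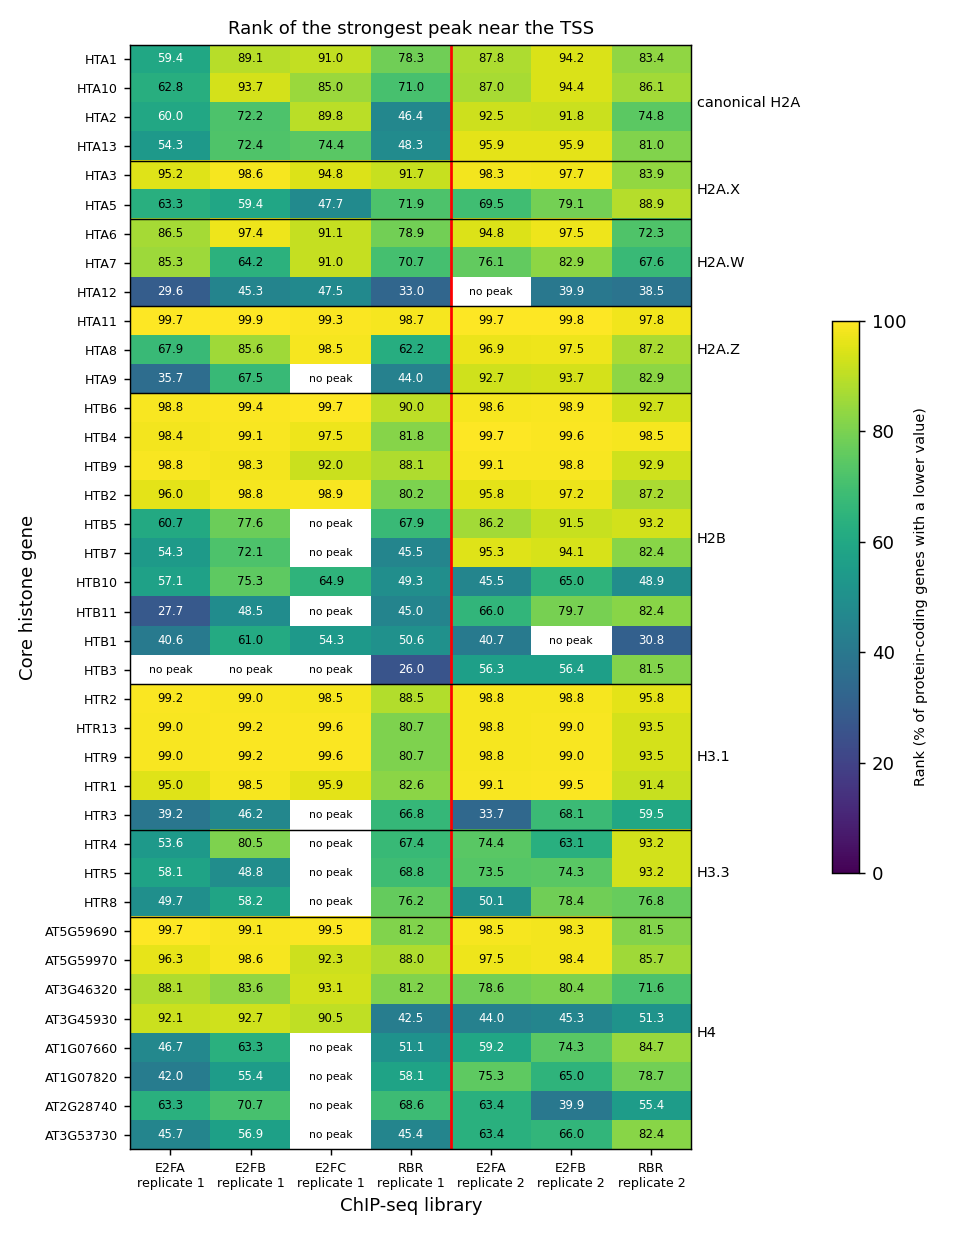
Rank of the strongest peak within 1000 bp of the TSS for the 38 core histone genes (rows, grouped by variant) in the 7 libraries (columns, replicate 1 left of the red line and replicate 2 right of it). The number and colour give the percentage of 27444 protein-coding genes with a lower value, and white cells have no peak. The 3 H3.3 genes lack an E2FC peak, while 4 of the 5 H3.1 genes stand above 90 in both E2FA and both E2FB libraries.

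The members ranged from strong to weak within every family. In 5 or more libraries, 12 members (31.6%) were in the top 10%, a position held by 4.37% of all genes. They were HTA3 and HTA11 for H2A, HTB2, HTB4, HTB6 and HTB9 for H2B, HTR1, HTR2, HTR9 and HTR13 for H3.1, and AT5G59690 and AT5G59970 for H4. HTA11 was the only member in the top 10% of all 7 libraries, where 0.838% of all genes were. In no library did 12 other members (31.6%) reach the top 10%, beside 72.5% of all genes. They were HTA5, HTA12, HTB1, HTB3, HTB10, HTB11, HTR3, HTR8 and the H4 genes AT1G07660, AT1G07820, AT2G28740 and AT3G53730.

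Strongest peaks lay close to the start of most genes, but not always to that of the histone gene. In replicate 1 the E2FA peaks had a median distance of -138 bp from the TSS, the E2FB peaks of -135 bp, the E2FC peaks of -179 bp and the RBR peaks of -32.5 bp. In replicate 2 the median summit of E2FA lay at 13 bp, that of E2FB at 24 bp and that of RBR at -7.5 bp. The strongest peak was nearer to the TSS of the histone gene than to any other TSS at 26 members (E2FA), 28 members (E2FB), 19 members (E2FC) and 26 members (RBR) in replicate 1, beside 79.5, 80.3, 83.5 and 79.5% of all genes with a peak. In replicate 2 such members were 28 of 37 (E2FA), 26 of 37 (E2FB) and 22 of 38 (RBR), beside 80.2, 79.6 and 78.4%. The share was lower among members than among all genes in each of the 7 libraries. Over all libraries, 175 of the 249 strongest peaks of members were nearest to the histone gene, beside 109124 of 136397 for all protein-coding genes. In replicate 2, the E2FA and E2FB summits of a member were a median of 25 bp apart, and 31 of 36 members (86.1%) had them within 100 bp, against a median of 51 bp and 71.3% for all genes with both peaks. The E2FA and RBR summits were a median of 68 bp apart, with 21 of 37 members (56.8%) within 100 bp, against 58 bp and 67.4%. The E2FB and RBR summits were 35 bp apart, with 24 of 37 members (64.9%) within 100 bp, against 52 bp and 71.4%.

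**Figure D2:**
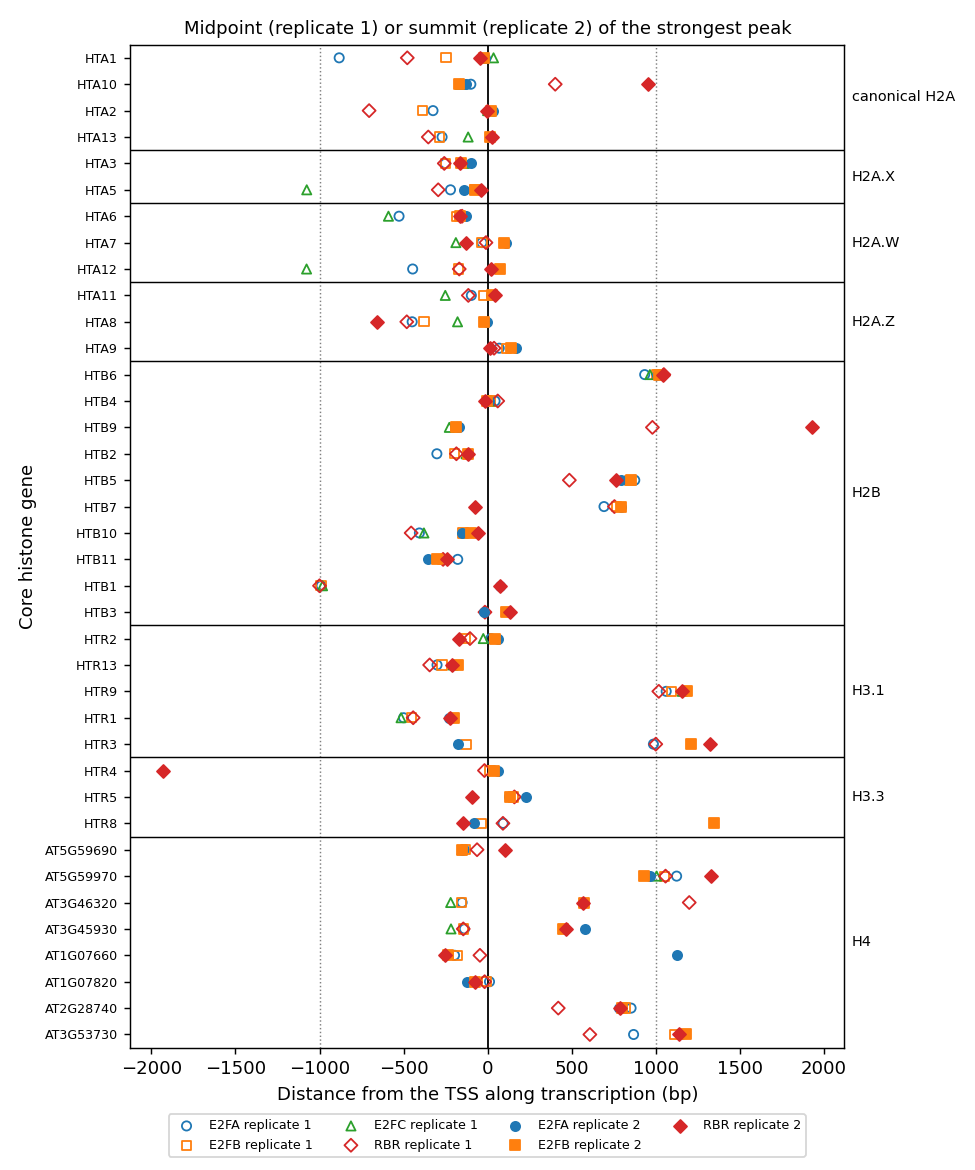
Distance in bp along transcription from the TSS to the midpoint (replicate 1, open symbols) or summit (replicate 2, filled symbols) of the strongest peak of each core histone gene, with dotted lines at 1000 bp. Symbols cluster near 0 for genes such as HTB4 and HTA11 and near 1000 bp for HTB6, HTR9 and AT5G59970, whose strongest peaks lie nearer to another gene.

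Among the H2A genes, the highest value belonged to a replacement variant. HTA11 (AT3G54560, chr3:20196140-20197726, + strand), 1 of the 3 H2A.Z genes, had the highest mean rank over the 7 libraries of all members, 99.3. Its fold enrichment was 3.48, 3.13, 2.76 and 2.56 in replicate 1 and 17.4, 18.0 and 7.03 in replicate 2. These were ranks between 97.8 and 99.9, and the lowest was for RBR replicate 2. The 3 summits of replicate 2 lay at 18, 24 and 42 bp, just inside the transcribed region. The 150 bases before its TSS are shown because no searched word was found between -250 and 50 bp at this histone gene of the highest mean rank. They are chr3:20195990-20196139 of TAIR10 and run on the + strand.

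HTA11: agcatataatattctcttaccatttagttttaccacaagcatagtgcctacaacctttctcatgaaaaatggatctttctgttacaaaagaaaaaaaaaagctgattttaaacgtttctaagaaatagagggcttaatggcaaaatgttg

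HTA8 (AT2G38810, chr2:16219220-16220928, - strand), also H2A.Z, had a mean rank of 85.1 and a fold enrichment of 1.99, 1.97, 2.56 and 1.8 in replicate 1 and 7.40, 8.81 and 5.25 in replicate 2. It stood high for E2FC (98.5) and for E2FA and E2FB of replicate 2 (96.9 and 97.5), and lower for E2FA and RBR of replicate 1 (67.9 and 62.2). HTA9 (AT1G52740, chr1:19645236-19646485, + strand), the third H2A.Z gene, had no E2FC peak and a mean rank of 59.5. Its fold enrichment was 1.55, 1.73 and 1.61 for E2FA, E2FB and RBR in replicate 1 and 5.35, 6.31 and 4.88 in replicate 2. Ranks of HTA9 were from 35.7 to 67.5 in the first of these sets and from 82.9 to 93.7 in the second, which do not overlap. The 3 H2A.Z genes therefore spanned mean ranks from 59.5 to 99.3.

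The 4 canonical H2A genes were alike, with mean ranks from 74.6 for HTA13 to 83.3 for HTA1, a peak in all 7 libraries each and 2 libraries in the top 10% each. HTA3 (AT1G54690, chr1:20414316-20415287, - strand), which encodes an H2A.X, was the second highest H2A gene at a mean rank of 94.3. Its fold enrichment was 2.71, 2.61, 2.2 and 2.24 in replicate 1 and 9.80, 9.06 and 4.96 in replicate 2, and RBR replicate 2 was the only library below the top 10%, at a rank of 83.9. The other H2A.X gene, HTA5 (AT1G08880), had a mean rank of 68.5, and its strongest peak was nearest to the divergent gene AT1G08890, whose TSS is 49 bp away, in all 7 libraries. H2A.W was the most uneven variant, with mean ranks of 88.4 for HTA6, 76.8 for HTA7 and 33.4 for HTA12. HTA12 (AT5G02560, chr5:575225-577216, + strand) was the lowest H2A gene, with a fold enrichment of 1.46, 1.54, 1.44 and 1.48 in replicate 1 and of 2.55 and 2.62 for E2FB and RBR in replicate 2, where E2FA had no peak. All 7 ranks of HTA12 were under 50, the highest being 47.5 for E2FC.

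The octamer, shown in capitals, was found in the promoters of HTA10, HTA13 and HTA6 among the H2A genes. HTA10 (AT1G51060, chr1:18926661-18926810, + strand) carried it in both orientations and HTA13 (AT3G20670, chr3:7229240-7229389, + strand) in reverse, so that it reads GATCCGCG, in the 150 bases before the TSS.

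HTA10: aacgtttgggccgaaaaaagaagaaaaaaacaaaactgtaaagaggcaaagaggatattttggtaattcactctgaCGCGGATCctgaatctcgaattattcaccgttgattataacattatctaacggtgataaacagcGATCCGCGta

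HTA13: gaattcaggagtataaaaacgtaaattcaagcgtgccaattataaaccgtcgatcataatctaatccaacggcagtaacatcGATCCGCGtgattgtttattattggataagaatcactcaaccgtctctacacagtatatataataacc

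The words of HTA10 start at -74 and -10 bp and its E2FA and E2FB summits of replicate 2 lay upstream of them, at -127 and -169 bp. The word of HTA13 starts at -68 bp and its 3 summits lay on the other side of the TSS, between 12 and 28 bp. The octamer and the summits thus had no fixed order at these genes.

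The H2B genes were split, 4 of them having a mean rank between 93.5 and 96.9 and the other 6 between 31.4 and 68.2. HTB4 (AT5G59910, chr5:24126877-24128162, + strand) had a mean rank of 96.4 and a fold enrichment of 3.03, 2.72, 2.43 and 2.05 in replicate 1 and 18.7, 15.2 and 7.36 in replicate 2. Its E2FA value in replicate 2 was the highest among the members. The 3 summits lay at 6, -1 and -13 bp, so this peak sat on the TSS. A looser E2F word (TT, 2 bases that are each C or G, CG, and again 2 bases that are each C or G, read on either strand) covers the TSS of HTB4. It is in capitals in the 30 bases from -20 to 9 bp, chr5:24126857-24126886 on the + strand.

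HTB4: gcagaatttttcgaggatGGCGGGAAtgga

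HTB2 (AT5G22880, - strand) had a mean rank of 93.5 and all 3 summits of replicate 2 between -117 and -115 bp. It was the only H2B gene with an E2F word from the short list, which starts at -161 bp and is in capitals in the bases from -200 to -101, chr5:7652815-7652914.

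HTB2: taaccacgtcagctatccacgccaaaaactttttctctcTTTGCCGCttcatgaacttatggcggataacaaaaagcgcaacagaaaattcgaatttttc

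HTB6 (AT3G53650, chr3:19889297-19890251, + strand) had the highest mean rank among the H2B genes, 96.9, but from a peak over its 3′ end. Its fold enrichment was 3.13, 2.81, 2.96 and 2.2 in replicate 1 and 10.4, 11.7 and 5.87 in replicate 2. All 7 midpoints or summits lay from 934 to 1048 bp after the TSS, nearest to AT3G53670, whose TSS is 1067 bp away. No peak in any library was nearest to the TSS of HTB6 itself. At HTB9 (AT3G45980, mean rank of 95.4) the midpoints or summits of the E2FA, E2FB and E2FC peaks lay from -228 to -170 bp. Those of the strongest RBR peaks lay 980 and 1929 bp after the TSS, nearest to the expansin-like gene EXLA1. Both RBR peaks nevertheless covered the TSS of HTB9. In replicate 2 the RBR peak was 2718 bp wide and spanned nearly the same bases as those of E2FA (2734 bp) and E2FB (2811 bp).

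Of the weaker H2B genes, HTB3 (AT2G28720, chr2:12326808-12327808, + strand) had the lowest mean rank of the 38 members, 31.4. It had no peak of E2FA, E2FB or E2FC in replicate 1, and its fold enrichment was 1.36 for RBR there and 2.65, 3.28 and 4.77 in replicate 2. The last of these, for RBR, reached a rank of 81.5. HTB1 (AT1G07790, chr1:2412938-2413790, + strand) had a fold enrichment of 1.62, 1.67, 1.51 and 1.68 in replicate 1 and of 2.15 and 2.22 for E2FA and RBR in replicate 2, where E2FB had no peak. The peaks of replicate 1 were centred from -1000 to -982 bp and nearest to PAI1, a gene of tryptophan synthesis. Only 69.3% of the window of HTB1 was unique at a length of 76 bases, and reads from near-identical DNA may be missing or misplaced there.

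At the other 3 H2B genes without an E2FC peak, most of the strongest peaks were nearer to the TSS of a neighbour. HTB5 (AT2G37470, chr2:15736727-15737728, + strand) had a fold enrichment of 1.88, 1.85 and 1.86 for E2FA, E2FB and RBR in replicate 1 and 4.25, 5.82 and 5.94 in replicate 2. Its midpoints and summits all lay after the TSS, between 486 and 875 bp. The RBR peak of replicate 1 and all peaks of replicate 2 also covered the TSS itself. HTB7 (AT3G09480, chr3:2914701-2915442, - strand) had a fold enrichment of 1.8, 1.78 and 1.62 in replicate 1 and 6.35, 6.46 and 4.85 in replicate 2. HTB11 (AT3G46030, chr3:16913384-16914131, - strand) had 1.43, 1.57 and 1.62 in replicate 1 and 3.0, 4.5 and 4.85 in replicate 2, and 5 of its 6 peaks were nearest to RPS15AD, a ribosomal protein gene with its TSS 394 bp away. Their mean ranks were 68.2, 63.4 and 49.9. HTB10 (AT5G02570), the remaining H2B gene, lies inside HTA12 on the opposite strand and had a mean rank of 58.0 with a peak in all 7 libraries.

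The H3 genes divided by variant. Of the 5 H3.1 genes, 4 had mean ranks from 94.6 to 96.9 and HTR3 had 44.8, while the 3 H3.3 genes had 55.6 to 61.7. HTR2 (AT1G09200, chr1:2971571-2972334, - strand) was the highest, with a fold enrichment of 3.26, 2.68, 2.56 and 2.17 in replicate 1 and 11.05, 11.4 and 6.42 in replicate 2. Its ranks were all at 95.8 or above except for RBR replicate 1, at 88.5. HTR1 (AT5G65360) was likewise lowest for RBR replicate 1, at 82.6, with ranks from 91.4 to 99.5 in the other 6 libraries.

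The octamer stood in the promoters of HTR2 and HTR1, and in capitals in the 150 bases before each TSS, chr1:2972335-2972484 and chr5:26120582-26120731, both on the - strand. HTR2 carried it at -90 and -19 bp, while HTR1 carried it at -126 bp.

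HTR2: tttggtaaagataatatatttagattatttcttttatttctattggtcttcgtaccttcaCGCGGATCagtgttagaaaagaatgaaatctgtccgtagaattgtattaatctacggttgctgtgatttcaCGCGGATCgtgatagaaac

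HTR1: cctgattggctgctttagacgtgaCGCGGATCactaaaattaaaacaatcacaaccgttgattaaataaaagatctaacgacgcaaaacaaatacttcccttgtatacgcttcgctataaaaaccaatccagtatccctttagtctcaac

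HTR9 (AT5G10400, chr5:3270172-3270957) and HTR13 (AT5G10390, chr5:3268847-3269594) are neighbours on the - strand with TSSs 1363 bp apart, and their strongest peak was the same one in all 7 libraries. It had a fold enrichment of 3.18, 2.77, 2.90 and 2.03 in replicate 1 and 10.9, 12.4 and 5.98 in replicate 2, which gave both genes a mean rank of 95.7. The peak was nearest to HTR13 in every library, with summits at -196, -177 and -210 bp in replicate 2, and no peak was nearest to HTR9. In replicate 2 the shared peak was 3414, 3627 and 3210 bp wide and also covered the TSS of HTR9. The octamer nevertheless lies before HTR9, at -120 bp, and HTR13 has none. HTR13 instead has an E2F word starting at -256 bp, just beyond the promoter window, which is in capitals in the bases from -270 to -171, chr5:3269765-3269864 on the - strand. The 3 summits lay downstream of the word, within the printed bases.

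HTR13: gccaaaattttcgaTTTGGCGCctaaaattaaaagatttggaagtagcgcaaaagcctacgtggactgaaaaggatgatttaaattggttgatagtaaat

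HTR3 (AT3G27360, chr3:10129105-10129937, - strand) was the H3.1 gene that stood apart. It had no E2FC peak, and its fold enrichment was 1.60, 1.55 and 1.85 for E2FA, E2FB and RBR in replicate 1 and 1.85, 3.82 and 3.57 in replicate 2. Its highest rank was 68.1, for E2FB replicate 2, and 4 of its 6 strongest peaks lay about 1000 bp or more after the TSS, nearest to AT3G27355. The octamer was not found in its promoter, which holds the hexamer at -186 bp.

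None of the H3.3 genes had an E2FC peak. HTR4 (AT4G40030, chr4:18555532-18557106, - strand) had a fold enrichment of 1.79, 1.89 and 1.86 for E2FA, E2FB and RBR in replicate 1 and 3.40, 3.57 and 5.94 in replicate 2. HTR5 (AT4G40040, chr4:18557149-18558945, - strand) had 1.84, 1.57 and 1.87 in replicate 1 and 3.35, 4.16 and 5.94 in replicate 2. These neighbours shared the RBR peak of replicate 2, which was nearest to AT4G40042, a gene with its TSS 152 bp from that of HTR5. HTR8 (AT5G10980, chr5:3472405-3473570, - strand) had 1.73, 1.65 and 1.96 in replicate 1 and 2.45, 4.41 and 4.48 in replicate 2. The only ranks of an H3.3 gene in the top 10% were the 93.2 of that shared RBR peak. HTR5 carries the octamer in reverse at -17 bp, in capitals in the 150 bases before its TSS, chr4:18558946-18559095 on the - strand, and so has the word without the strong peaks of HTR2 and HTR1.

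HTR5: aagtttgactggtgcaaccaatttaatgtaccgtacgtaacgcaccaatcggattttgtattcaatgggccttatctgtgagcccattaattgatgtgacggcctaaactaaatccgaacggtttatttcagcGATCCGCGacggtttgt

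For E2FA and E2FB the gap between the medians of both H3 variants was wider than the shift of either median between replicates, and for RBR it was not. The median rank for E2FA was 99.0 for H3.1 and 53.6 for H3.3 in replicate 1, and 98.8 against 73.5 in replicate 2, a shift of 19.9 points for H3.3. For E2FB it was 99.0 against 58.2 in replicate 1 and 99.0 against 74.3 in replicate 2, a shift of 16.1 points for H3.3. For RBR it was 80.7 against 68.8 in replicate 1 and 93.5 against 93.2 in replicate 2, and H3.3 shifted by 24.4 points. The single genes overlapped, since HTR3 lay below all 3 H3.3 genes in each of these 6 libraries except E2FB replicate 2, and there it lay below HTR5 and HTR8.

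H4 had 2 high, 2 intermediate and 4 low genes, and none of the 8 has an intron in its coding sequence. AT5G59690 (chr5:24051474-24052218, + strand) was the highest, with a mean rank of 93.98. Its fold enrichment was 3.5, 2.72, 2.83 and 2.04 in replicate 1 and 10.2, 10.1 and 4.77 in replicate 2, and both RBR libraries gave it a rank near 81, under all others. The E2FA and E2FB peaks of both replicates were centred from -155 to -133 bp, upstream of an octamer at -71 bp. It is in capitals in the 150 bases before the TSS, chr5:24051324-24051473 on the + strand.

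AT5G59690: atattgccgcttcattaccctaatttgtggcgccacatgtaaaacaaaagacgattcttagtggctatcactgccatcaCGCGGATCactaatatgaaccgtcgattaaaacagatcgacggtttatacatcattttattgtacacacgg

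AT5G59970 (chr5:24145831-24146729, - strand) had a mean rank of 93.8 and a fold enrichment of 2.80, 2.60, 2.09 and 2.16 in replicate 1 and 8.20, 10.2 and 5.10 in replicate 2. All of these peaks lay from 931 to 1326 bp after the TSS and were nearest to AT5G59960, so none was nearest to the H4 gene. AT3G46320 and AT3G45930, with mean ranks of 82.4 and 65.5, are close copies. Over the 100 bases from -250 to -151 bp they were identical at 99, and both hold an E2F word at -237 bp (capitals, chr3:17020579-17020678 on the - strand and chr3:16883066-16883165 on the + strand).

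AT3G46320: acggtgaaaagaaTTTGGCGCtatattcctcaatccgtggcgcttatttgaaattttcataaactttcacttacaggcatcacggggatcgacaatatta

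AT3G45930: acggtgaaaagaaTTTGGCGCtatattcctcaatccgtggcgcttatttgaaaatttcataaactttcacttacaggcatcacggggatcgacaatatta

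Only 63.1 and 61.8% of their windows were unique at 76 bases, so reads could not always be given to 1 of the copies. In replicate 1 their E2FA, E2FB and E2FC peaks were centred from -220 to -138 bp, between the E2F word and the TSS, with ranks from 83.6 to 93.1. In replicate 2 the strongest summits lay from 447 to 580 bp after the TSS, and the ranks were from 71.6 to 80.4 for AT3G46320 and from 44.0 to 51.3 for AT3G45930. The strongest E2FA and E2FB peaks of these copies therefore lay on different sides of the TSS in the replicates. In replicate 1 both windows held 2 peaks of E2FA and 2 of E2FB, and only the stronger is placed here. The strongest RBR peak of AT3G46320 in replicate 1 was centred 1199 bp after the TSS.

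The other 4 H4 genes had no E2FC peak and mean ranks from 51.4 to 54.2. AT3G53730 (chr3:19912385-19913515, - strand) was the lowest, with a fold enrichment of 1.68, 1.64 and 1.62 for E2FA, E2FB and RBR in replicate 1 and 2.90, 3.72 and 4.85 in replicate 2. AT2G28740 (HIS4, chr2:12329345-12330059, - strand) had 1.92, 1.76 and 1.87 in replicate 1 and 2.90, 2.55 and 3.39 in replicate 2. AT1G07820 (chr1:2421089-2422066, - strand) had 1.64, 1.62 and 1.76 in replicate 1 and 3.45, 3.67 and 4.59 in replicate 2. AT1G07660 (chr1:2368833-2369735, + strand) had 1.69, 1.69 and 1.68 in replicate 1 and 2.75, 4.16 and 5.03 in replicate 2, although its promoter carries the octamer at -126 bp. None of the 4 reached the top 10% in any library.

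**Figure D3:**
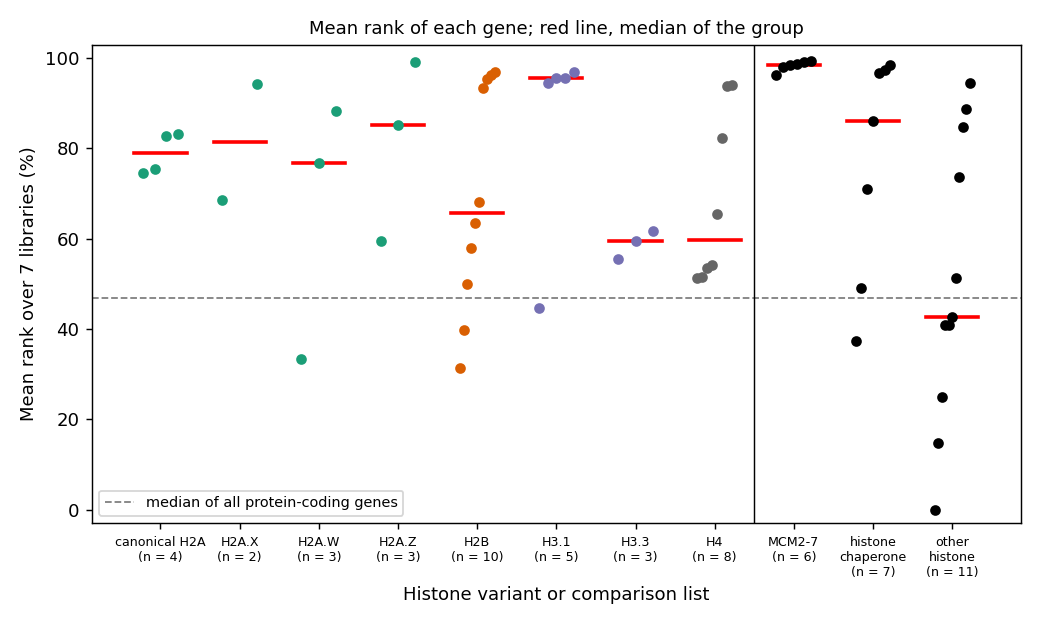
Mean rank over the 7 libraries, in percent of genes with a lower value, of each core histone gene by variant (coloured points) and of the genes of 3 comparison lists (black points), with the median of each group as a red line and the median of all protein-coding genes (46.8) dashed. H3.1 has a median of 95.7 and H3.3 of 59.5, and H2B has a gap between high and low genes.

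Set side by side, the median of the mean ranks was 79.9 for H2A (33.4 to 99.3), 65.8 for H2B (31.4 to 96.9), 78.2 for H3 (44.8 to 96.9) and 59.8 for H4 (51.4 to 93.98), where all protein-coding genes had 46.8. The spread between replicates of a family median was 14.5 points for H2A, 18.0 for H2B, 7.31 for H3 and 7.84 for H4, and the ranges overlapped. This spread is that of medians in single libraries, whereas the medians above are of ranks averaged over 7 libraries, so it is only a rough measure for them. H2A, H3 and H2B differed by less than the spread of H2B. H4 lay below H3 by more than the spread of either, but the H3 median was 61.7 when the peak shared by HTR9 and HTR13 was counted once. H3 was above H4 in each single library, but by little in E2FA replicate 1 (76.5 against 75.7) and in E2FC (48.0 against 45.2). By variant the median was 79.1 for canonical H2A, 81.4 for H2A.X, 76.8 for H2A.W, 85.1 for H2A.Z, 95.7 for H3.1 and 59.5 for H3.3.

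The 27 replication-type genes (canonical H2A, H2B, H3.1 and H4) had a median of 75.4 and the 6 replacement genes (H3.3 and H2A.Z) one of 60.6, a difference of 14.7 points. This difference depended on the libraries. It was 29.9 points over the replicate 1 libraries and 4.11 over those of replicate 2, and 8.77 without E2FC replicate 1, the only E2FC library. It was 2.95 when only peaks nearest to the TSS of the gene were counted. The mean ranks ran from 31.4 to 96.9 in the replication-type genes and from 55.6 to 99.3 in the replacement genes, with HTA11 above all 27 replication-type genes. An E2FC peak was found at 18 of the 27 replication-type genes and at 2 of the 6 replacement genes, HTA8 and HTA11, which is too few genes and 1 library for a difference to be read.

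E2FC was the protein that left out most members, and its library also had a peak at the lowest share of all genes (57.0%). Of the 35 members with a peak in the 6 libraries of the other proteins, 12 had no E2FC peak (34.3%), beside 25.5% of all genes with a peak in those 6. They were HTA9, HTB5, HTB7, HTB11, HTR3, HTR4, HTR5, HTR8, AT1G07660, AT1G07820, AT2G28740 and AT3G53730. Of the 25 members with an E2FC peak, 18 were in the top 10% of that library, or 11 when genes without a peak were left out of the ranking. In the other libraries of replicate 1 none of these 12 was in the top 10%, and their ranks ran from 27.7 for HTB11 with E2FA to 80.5 for HTR4 with E2FB. In replicate 2, HTA9, HTB5, HTB7, HTR4 and HTR5 were in the top 10% of 1 or 2 libraries. The top 10% share of all genes that likewise lack only the E2FC peak is not given here. These counts are therefore not read as a trait of the histone genes. As E2FC has no replicate 2, the absences of its peak were not repeated in another library.

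**Figure D4:**
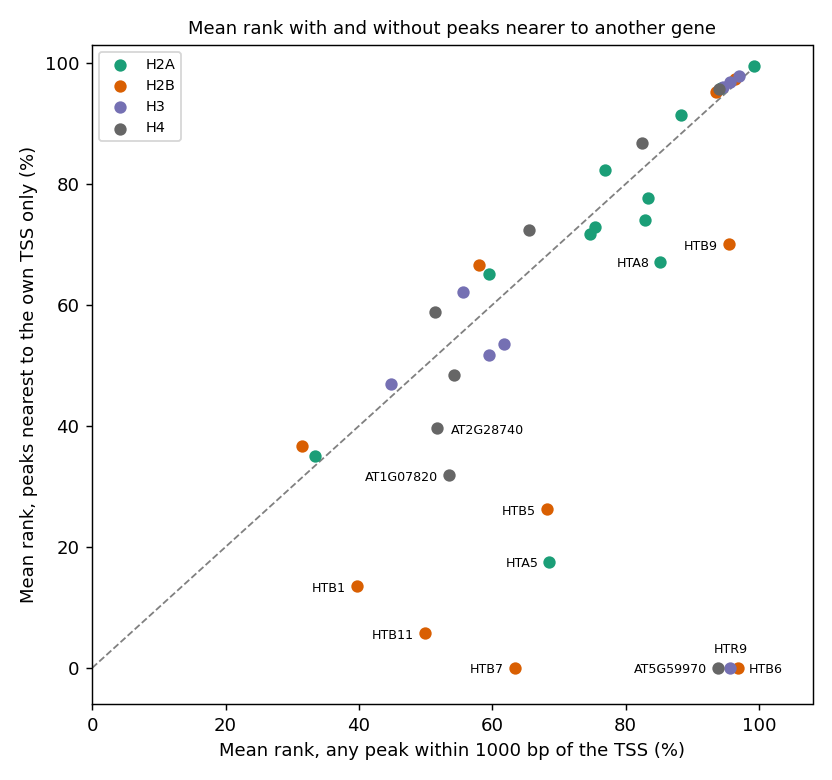
Mean rank over the 7 libraries of each core histone gene from any peak within 1000 bp of the TSS (x axis) and from peaks nearer to its own TSS than to any other (y axis), both in percent of genes with a lower value, coloured by family. The 12 named genes fall more than 10 points below the dashed line of equality, and HTB6, HTB7, HTR9 and AT5G59970 lie at 0.

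Many values of the members rested on peaks that lay nearer to the TSS of another gene, and to which gene such a peak belongs was not tested. When only peaks nearest to the TSS of the gene itself were counted, 12 members lost more than 10 points of mean rank and the other 26 changed by less. HTB6, HTB7, HTR9 and AT5G59970 had no such peak in any library, although some peaks of replicate 2 covered the TSS of HTB6, HTB7 and HTR9. For HTA5, HTB5, HTB11 and HTB1 the mean rank was 17.6, 26.2, 5.74 and 13.5 in place of 68.5, 68.2, 49.9 and 39.7. The neighbour of HTA5 starts 49 bp away, so the peak there could belong to either gene. The family medians from such peaks were 73.4 for H2A, 31.4 for H2B, 57.9 for H3 and 53.6 for H4, while that of all genes was 42.5. H3.1 kept a median of 96.0, and H3.3 had 53.6. HTA11 (99.5), HTR2 (97.8), HTB4 (97.3), HTR13 (96.9), HTR1 (96.0), HTA3 (95.9), AT5G59690 (95.6) and HTB2 (95.3) were the members above 95.

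In the promoters, taken as the 250 bases before to 50 after the TSS and searched on both strands, the octamer CGCGGATC was found in 9 of 38 members (23.7%) and in 40 of all 27444 promoters (0.146%). It was in 3 H2A, 4 H3 and 2 H4 promoters and in no H2B promoter. The hexamer ACGTCA was in 13 members (34.2%) and 9.19% of all promoters, and 9 of the 10 H2B promoters had it, HTB7 being the exception. The 4 E2F words were in 3 members (7.89%), HTB2, AT3G46320 and AT3G45930, and in 1.76% of all promoters. The looser E2F words were in 1 member (2.63%), HTB4, and in 3.55% of all promoters. These 16 words lack the first T of the 4 E2F words and ask for C or G at both last bases. They therefore do not contain the 4 E2F words, and a count with them can be lower. E2F words and looser ones can overlap, as they do at HTR13, and no octamer or hexamer overlapped an E2F word in these promoters. The median content of G and C was 35.7% in the members and 32% in all promoters, and its part in these shares was not tested.

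Members with and without these words overlapped in peak strength. The 9 members with the octamer had a median of mean ranks of 88.4 and the other 29 one of 68.2, but AT1G07660 and HTR5 have the word with mean ranks of 54.2 and 59.5, and HTR9 has it without a peak nearest to its TSS. The 13 members with the hexamer, 9 of them H2B genes, had 58.0 and those without it 76.8. Over all promoters the order was the other way for the hexamer, with a median of 52.2 with it and 46.3 without it. There the median was 62.1 with the octamer and 46.8 without it, and 80.4 with an E2F word and 46.4 without one. The 3 members with an E2F word had mean ranks of 93.5, 82.4 and 65.5, and HTA11, HTA3 and HTR2 had none of the E2F words. Within 100 bp of the E2FA summit of replicate 2, an E2F word stood at 6 of 37 members (16.2%) and at 4.77% of all genes with a peak, and a looser one at 7 (18.9%) and 9.23%.

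**Figure D5:**
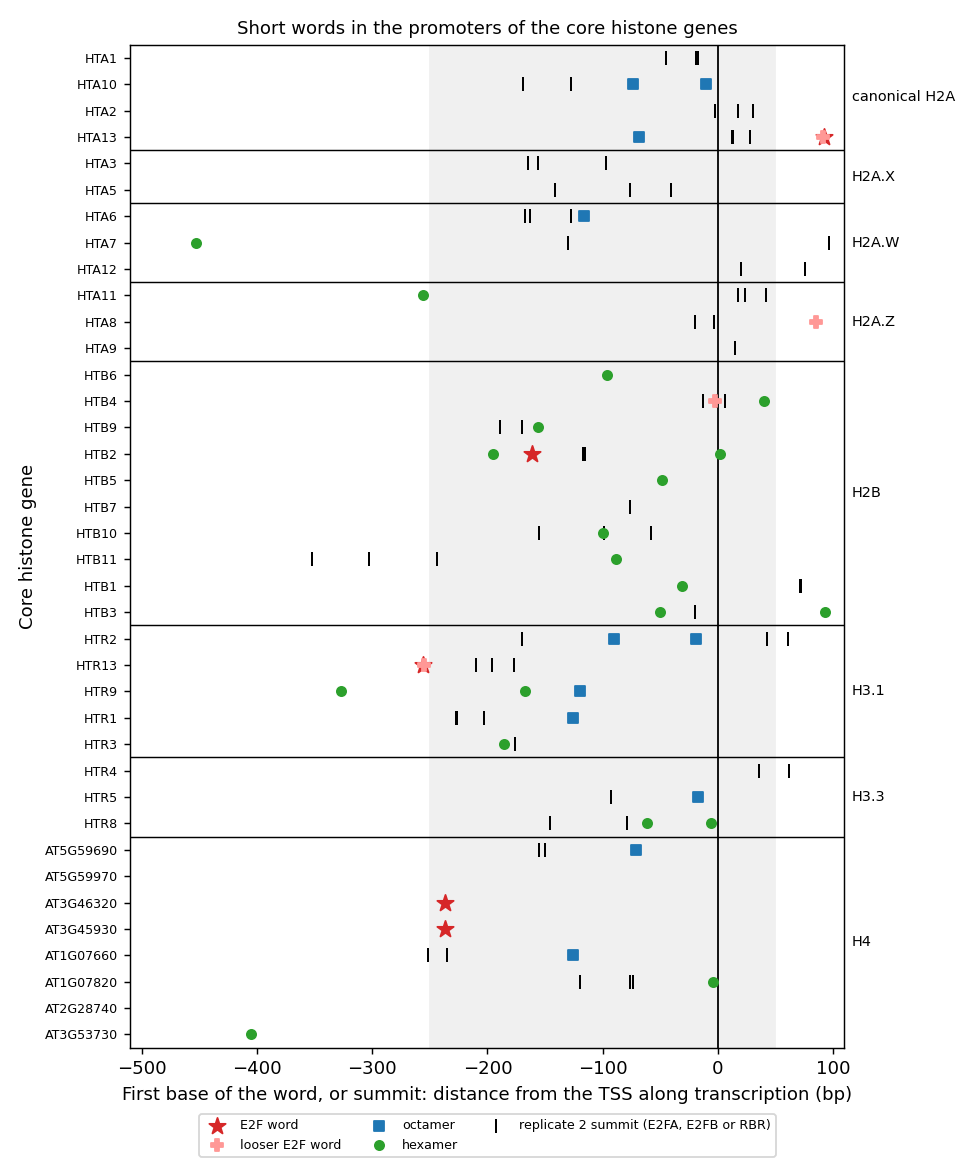
Start of each searched word (coloured symbols) and summits of the E2FA, E2FB and RBR peaks of replicate 2 (black ticks) around the TSS of each core histone gene, in bp along transcription, with the promoter window from -250 to 50 bp in grey. Hexamers fill the H2B rows, octamers occur in H2A, H3 and H4 rows, and E2F words are in the window at HTB2, AT3G46320 and AT3G45930.

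Beside the MCM2-7 genes, the histone genes were weaker and more uneven. The 6 genes of the MCM2-7 complex, the helicase that opens DNA at the fork and a known set of E2F targets, had mean ranks from 96.2 to 99.5 with a median of 98.6, and all 6 were in the top 10% of 5 or more libraries. The median over the 38 members was 75.0, and HTA11, HTR2, HTB6 and HTB4 were the members within the MCM2-7 range. The 7 histone chaperone genes had a median of 86.1 (37.4 to 98.5). Of the 3 subunits of CAF-1, which handles H3.1, FAS1 and FAS2 stood at 98.5 and 97.5. MSI1, which had no peak in replicate 1, stood at 37.4. Its ranks in replicate 2 were 96.2 for E2FA, 92.8 for E2FB and 72.8 for RBR. HIRA, which handles H3.3, stood at 49.1, with ranks of 34.6, 57.4 and 57.0 in these 3 libraries. A further 11 histone genes outside the list, for H1, CENH3 and less common variants, had a median of 42.7 (0 to 94.6). The highest of these, HTR11, lies beside HTR1 and had the same rank as HTR1 in every library.

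Between replicates, the order of the members was closer for E2FA and E2FB than for RBR. Across the 38 members, E2FA had a Spearman's rho of 0.776 between the replicates, E2FB of 0.823 and RBR of 0.566, and Pearson's r was 0.633, 0.578 and 0.508. Over all 27444 genes the rho was 0.544, 0.749 and 0.759, and these points share neighbouring peaks and the depth of each library. The median shift of a member between replicates was 9.36 points for E2FA, 9.94 for E2FB and 12.9 for RBR.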

How the data were processed

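The samples were 7 ChIP-seq libraries of GFP fusions in whole seedlings. Per the labels and the methods, the authors used Trimmomatic 0.38, Bowtie2 2.3.5, SAMtools 1.9 and MACS2 2.2.7.1 on TAIR10, and the names of the replicate 2 peaks carry MACS3. The deposited fold enrichment is a ratio over nearby pile-up, and the deposited q-values are on a -log10 scale. Read depth was not analysed here, and the number of libraries limits the precision. Peaks on the 5 nuclear chromosomes were kept. TSSs, gene positions and promoter sequences were taken from the RefSeq annotation and genome of TAIR10.1, whose nuclear sequence is that of TAIR10, and all 38 loci were found. Computations used Python 3.11.15, numpy 2.4.6, scipy 1.17.1 and matplotlib 3.10.9. The procedures were tested on simulated data. Members and lists were chosen with earlier results of these data known. Values in every library were given for the 2 highest and the lowest member of each family by mean rank, the H3.3 and H2A.Z genes and each member lacking a peak in a library. Several H2B and H3 names are the usual ones for loci that RefSeq lists without a symbol. Alternatives varied the window, the assignment of peaks, the ranking, the thresholds, the libraries, the promoter and the words.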

Additional observations from a re-analysis of the deposited data

How the results depend on the processing

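Of 351 alternatives for library and family values, 312 kept the value within the replicate spread or, for counts, within 1.5 times, and for the mean ranks of single members 262 of 304 did so. Counting only peaks nearest to the own TSS and searching around the summit were chosen after seeing the data. At a fold enrichment over 2, E2FA had 16 members past the threshold in replicate 1, E2FB 16, E2FC 19 and RBR 14. Among genes with a peak only, the top 10% held 11 members for E2FC and 1 for RBR replicate 1, and the H4 median was 50.8. With the midpoint or summit required in the window, RBR replicate 1 had 4 members in the top 10%, the E2FC median rank was 73.8, the H3 median 61.9 and the replication-type minus replacement difference 7.89. From own peaks, RBR replicate 2 had 25 members with a peak, 22 past the threshold, 6 in the top 10% and a median rank of 69.3, the E2FC median was 61.3, H2B was at 31.4, H3 at 57.9 and the difference at 2.95. Over replicate 2 only, the medians were 90.5 for H2B, 88.5 for H3, 72.9 for H4, 89.2 for replication-type and 85.0 for replacement genes, and the difference was 4.11, against 29.9 over replicate 1. The H3 median was 68.3 in a window of 500 bp, 66.7 with the peak nearest to the TSS and 61.7 with shared peaks counted once. The difference was 8.61 in a window of 500 bp, 18.7 in one of 2000 bp, 7.13 with the peak nearest to the TSS, 18.5 with windows at least 80% unique, and from 8.77 (without E2FC replicate 1) to 19.4 (without RBR replicate 2) when 1 library was left out, with 18.7 without RBR replicate 1. E2F words were in 5 members in the wider promoter and in 6 around the summit, and the looser words, a set that does not contain them, were in 1. The causes of these shifts were not tested. No result came from a test, so no fit with the replicate as a block was made. With 1 or 2 libraries per protein, no input and different peak formats in the replicates, small differences in rank are not resolved.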
